A study of Oryza sativa with 5 samples.

Results

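The WRKY transcription factor family was followed in rice (Oryza sativa) roots by RNA-seq. Its members were all transcripts whose function text in the deposited tables contained the word WRKY. There were 96 such transcripts from 85 loci, of 40925 transcripts from 34330 loci in all. Of their function texts, 64 opened with "Similar to", so any number in those names is that of the most similar protein. A further 8 gave a WRKY DNA-binding domain and no number, and 24 named a factor directly, some of them only as "-like". The study compared roots of 2-week-old seedlings in 5 groups, each with 1 library. RCc3::OsNAC6 and GOS2::OsNAC6 plants, both in the cultivar Nipponbare, carried the NAC transcription factor gene OsNAC6 behind the root promoter RCc3 or the constitutive promoter GOS2. The nac6 plants, in the cultivar Hwayoung, carried a T-DNA insertion in OsNAC6. Nontransgenic (NT) plants of each cultivar were the controls. All plants were grown under normal conditions, without a stress treatment. Which transgenic line or how many plants gave each library was not given in the sources used here.

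WRKY factors carry a DNA-binding domain named after its conserved residues, followed by a zinc finger, and bind the W box, a promoter element with a TTGAC core. In rice they are best known for relaying defence signals of salicylic acid and jasmonic acid, and members act both as activators and as repressors of resistance. Others act in phosphate supply, senescence, sugar signalling, and gibberellin and abscisic acid responses. MAP kinases phosphorylate WRKY factors, VQ motif proteins bind them, and many WRKY genes are themselves induced within a short time of wounding or elicitation.

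The libraries held between 22909538 and 26838552 recovered reads, of which 38157 to 74316 fell on the WRKY transcripts. With 1 library per group there is no replicate check, standard errors (SE) cover counting error only, and no comparison below shows that a difference belongs to the genotype. OsNAC6 itself (Os01t0884300-01) did not follow the labels RCc3::OsNAC6 and nac6, and was only slightly higher in GOS2::OsNAC6. It had 6215 reads in the library labelled NT (Nipponbare), 6050 in RCc3::OsNAC6 and 6675 in GOS2::OsNAC6, and 7600 in NT (Hwayoung) against 8215 in nac6. Its log2 ratio to the control was -0.02 ± 0.03 (SE) with the RCc3 promoter, 0.37 ± 0.03 with GOS2 and 0.31 ± 0.03 in nac6, so no library labelled as an overexpressor was 2-fold higher and the library labelled nac6 was not lower. On which side of the T-DNA insertion these reads lie cannot be told from the tables. Group names below are therefore those of the library labels. As markers of other tissue, 64 photosystem and chlorophyll a/b transcripts summed to between 50.6 and 80.0 reads per 1000000 recovered reads (RPM) in a library, 4 to 7 of them were at 0 in a library, and the root gene RCc3 (Os02t0662000-01) had 182 to 1151 RPM.

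Each comparison is a log2 ratio of the deposited normalized values with a pseudocount of 1, made inside 1 table. It was tested where the mean of the pair reached 10. A transcript was counted as higher or lower from a 2-fold difference on, which is the cutoff the study used. Both overexpressor comparisons use the same NT (Nipponbare) library, so their likeness is in part built in, and their values are given side by side only.

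WRKY transcripts were mostly lower in the library labelled RCc3::OsNAC6. Of 84 members tested in that comparison, 25 from 22 loci were at least 2-fold lower than in NT (Nipponbare) and 0 were at least 2-fold higher. That is 29.8% lower, against 6.03% of all transcripts tested, and 0% higher, against 4.47%. In the library labelled GOS2::OsNAC6, 12 of 83 members from 10 loci were lower, or 14.5% against 2.0% of all, and 1 was higher, or 1.2% against 1.83%. The direction was the opposite in the library labelled nac6, where 20 of 81 members from 20 loci were higher than in NT (Hwayoung), or 24.7% against 6.3%, and 1 was lower, or 1.23% against 3.65%. The median log2 ratio of the members was -0.64, -0.09 and 0.41 in the 3 comparisons, where that of all transcripts was 0.01, -0.01 and -0.01. Ratios lay below 0 for 69 of 84 members in the RCc3::OsNAC6 comparison and 47 of 83 in that of GOS2::OsNAC6, and above 0 for 64 of 81 in that of nac6. Without the filter on low values, 77 of 96, 57 of 96 and 25 of 95 lay below 0. Of the tested members, 4, 4 and 2 had 1 library under a value of 10. Without those, 22 members were lower for RCc3::OsNAC6, 10 were lower in GOS2::OsNAC6 and 19 were higher in nac6, against 5.13%, 1.49% and 4.77% of all transcripts so filtered.

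**Figure D1:**
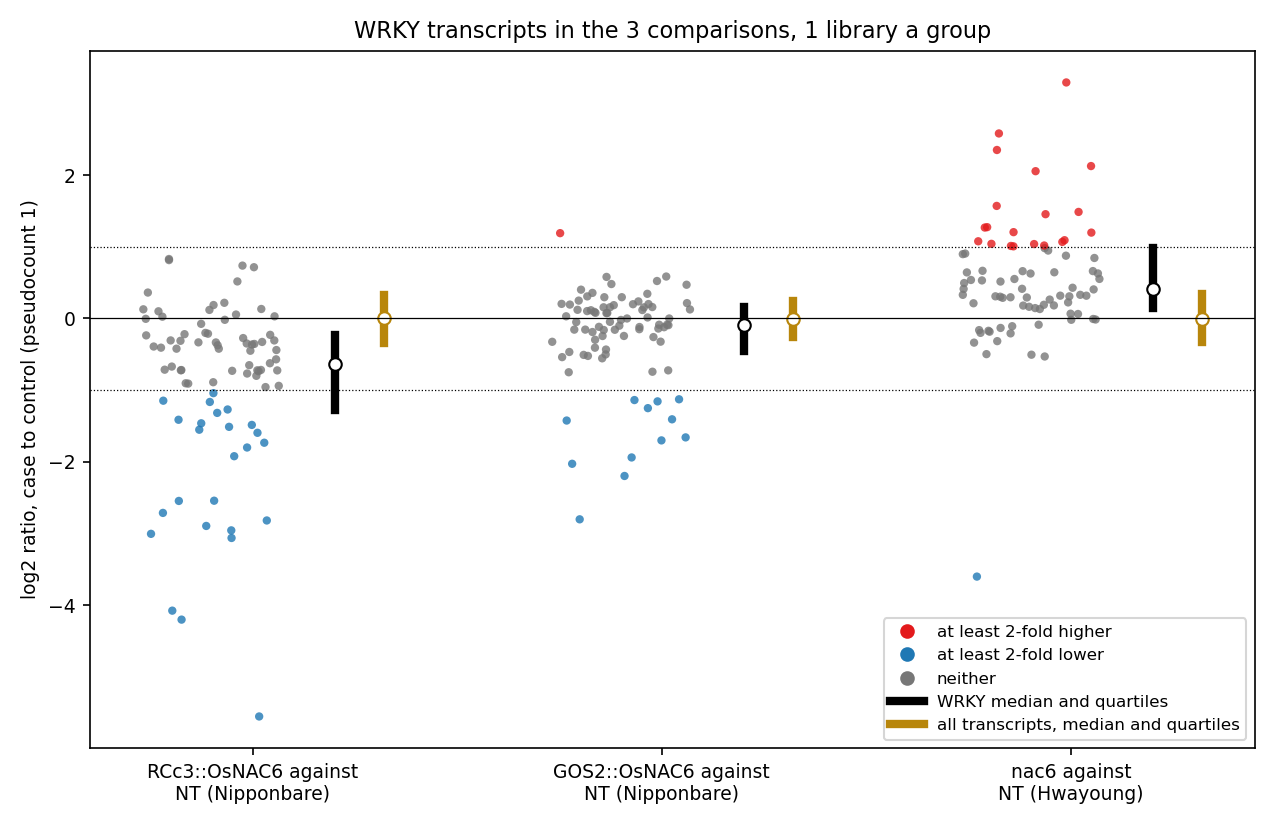
Log2 ratios of the tested WRKY transcripts (y axis, case to control, pseudocount of 1) in the 3 comparisons (x axis). Points are transcripts, dotted lines mark 2-fold, and thick bars with an open circle give the quartiles and median of the members (black) and of all transcripts (gold). The members centre at -0.64, -0.09 and 0.41, and all transcripts near 0.

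A read test set the 2 libraries of a comparison against each other, a two-sided exact binomial test of the reads with Benjamini-Hochberg adjustment over all transcripts tested. It passed for 56 of 84 members for RCc3::OsNAC6, 55 of them lower, against 42.9% of all transcripts. For GOS2::OsNAC6 it passed for 25 of 83, with 17 lower and 8 higher, against 28.2% of all, which is close to the 30.1% of the members. For nac6 it passed for 53 of 81, with 48 higher and 5 lower, against 39.4%. It says that 2 libraries differ beyond counting error and nothing about the genotypes. The 25 members lower for RCc3::OsNAC6 and the 20 higher for nac6 passed it, and so did 10 of the 12 lower for GOS2::OsNAC6.

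Summed over the family, the level was 2612 RPM in NT (Nipponbare), 1472 RPM in RCc3::OsNAC6, 2165 RPM in GOS2::OsNAC6, 2481 RPM in NT (Hwayoung) and 3244 RPM in nac6. The library labelled RCc3::OsNAC6 was the lowest of the 5 and that labelled nac6 the highest. Of the 84 members with a mean of at least 1 RPM, 52 had their lowest level of the 5 libraries in RCc3::OsNAC6 (61.9%, against 16.3% of all such transcripts). A further count put 43 members at their highest level in nac6 (51.2%, against 17.3%). RPM and the ratios of the tables scale differently. Scaled by library totals, the median of all transcripts in the nac6 comparison moved to -0.16, the members at least 2-fold higher went from 20 to 12 while the background went from 6.3% to 4.67%, and 60 of 82 tested members still lay above 0. The median of all transcripts for GOS2::OsNAC6 moved to -0.11 and the counts of 12 lower and 1 higher did not change.

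Defence factors that were abundant in NT (Nipponbare) were among the members with the lowest ratios for RCc3::OsNAC6. WRKY76 (Os09t0417600-01), a repressor of blast resistance, had 2106 reads in NT (Nipponbare), 111 in RCc3::OsNAC6, 380 in GOS2::OsNAC6, 310 in NT (Hwayoung) and 300 in nac6. Its log2 ratios were -4.20 ± 0.18 (18.4-fold lower), -2.20 ± 0.11 (4.59-fold lower) and 0.14 ± 0.15. The control of Nipponbare thus stood far above the other 4 libraries. WRKY62 (Os09t0417800-01), which binds the immune receptor XA21 and dampens resistance to bacterial blight, had 3242 reads in NT (Nipponbare), 410 in RCc3::OsNAC6, 852 in GOS2::OsNAC6, 189 in NT (Hwayoung) and 221 in nac6. Its log2 ratios were -2.96 ± 0.10, -1.66 ± 0.07 and 0.41 ± 0.19. Its locus number lies next to that of WRKY76 on chromosome 9.

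The transcripts similar to WRKY45, a salicylic acid-responsive activator of blast and blight resistance, were lower for RCc3::OsNAC6 by more than 7-fold and for GOS2::OsNAC6 by less than 2-fold. The most abundant of its 3 transcripts (Os05t0322900-01) had 3813 reads in NT (Nipponbare), 505 in RCc3::OsNAC6, 1920 in GOS2::OsNAC6, 822 in NT (Hwayoung) and 888 in nac6. The log2 ratios were -2.89 ± 0.09, -0.72 ± 0.05 and 0.31 ± 0.09, and the read test gave an adjusted p of 2.76e-306, 2.54e-36 and 0.00698 (exact binomial test, Benjamini-Hochberg). The other 2 transcripts of the locus had log2 ratios of -3.00 and -3.06 for RCc3::OsNAC6 and -0.74 and -0.56 for GOS2::OsNAC6. The 6 transcripts of WRKY45, WRKY62 and WRKY76 made up 42.7% of the family's lower RPM for RCc3::OsNAC6 and 72.9% for GOS2::OsNAC6. Without them the family sum was 31.6% lower than in NT (Nipponbare) for RCc3::OsNAC6 and 5.87% lower for GOS2::OsNAC6, in place of 43.7% and 17.1%. For nac6 the sum was 31.5% higher without them and 30.7% higher with them. How reads shared by isoforms were counted was not given in the sources used here, so a read may enter these sums more than once.

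**Figure D2:**
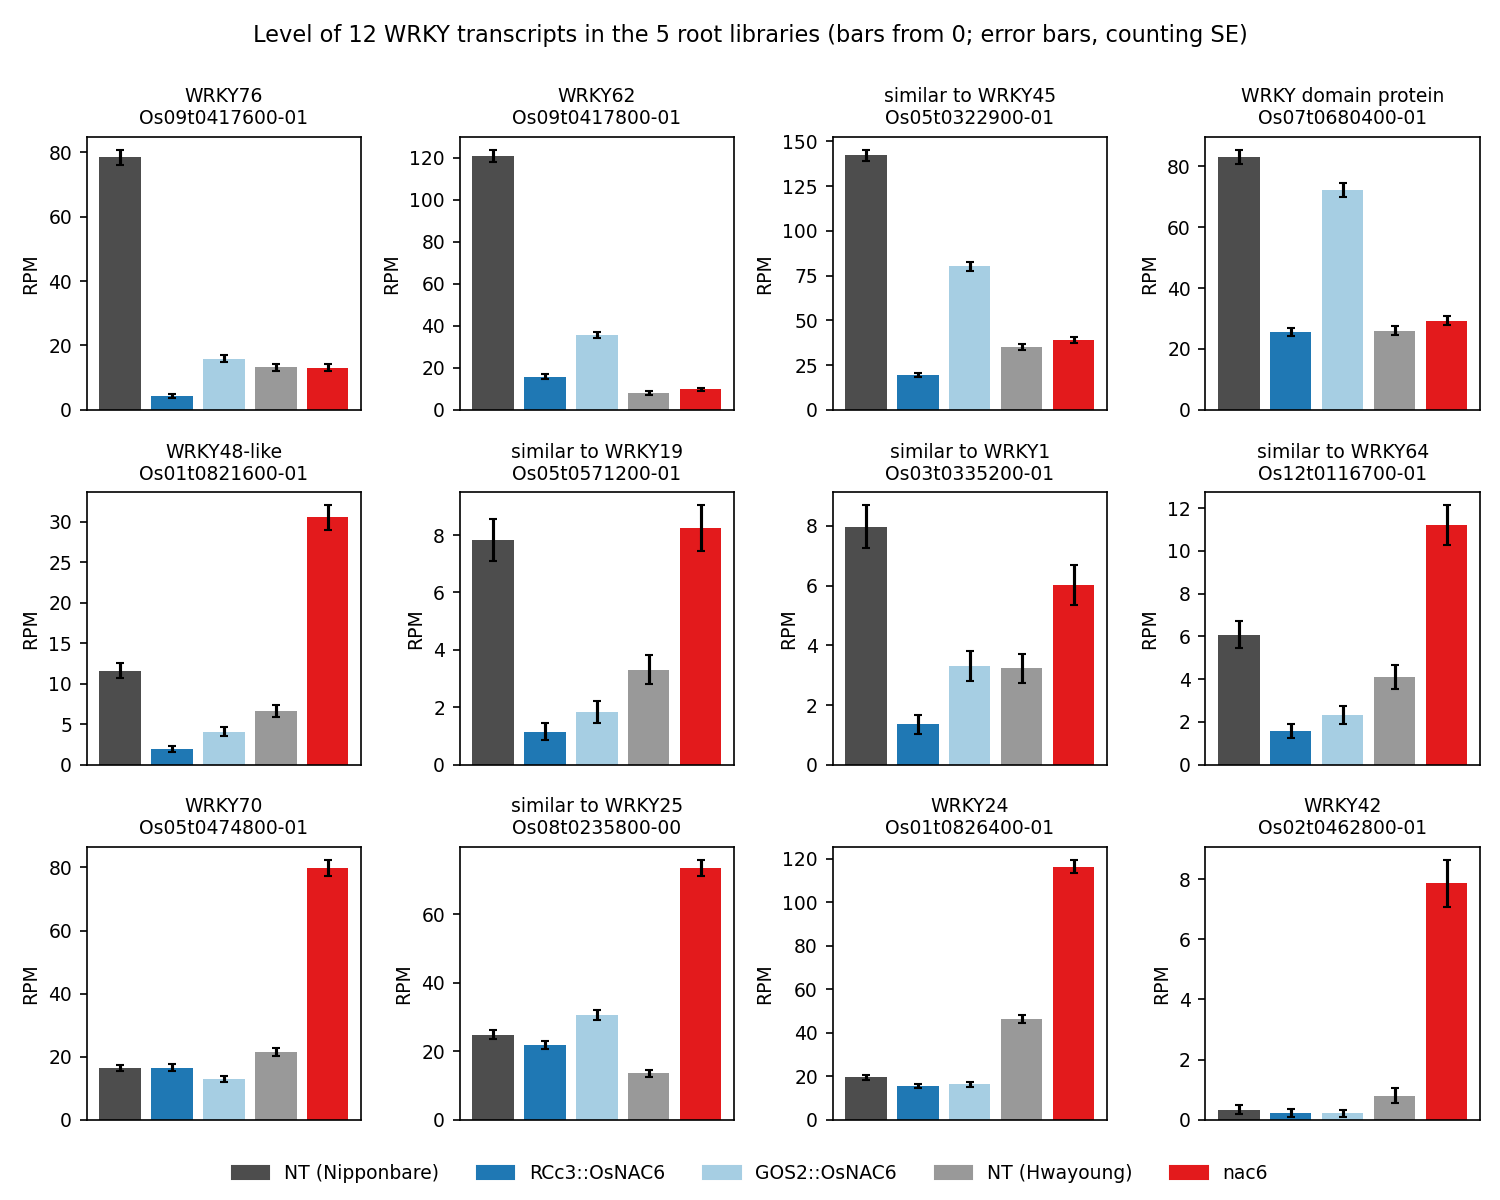
Level of 12 WRKY transcripts in RPM (y axis, from 0, with its own scale in each panel) in the 5 libraries (bars), with counting SE. The top row holds transcripts far higher in NT (Nipponbare) than in RCc3::OsNAC6, the middle row the 4 that were lower in both overexpressor libraries and higher in nac6, and the bottom row 4 that were higher in nac6.

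WRKY factors lower in both overexpressor libraries, which share a control, numbered 10 of the 83 transcripts tested in both, against 1.00% of all transcripts. Beside WRKY62 and both WRKY76 transcripts they were mostly of low level. Os05t0478800-00, similar to WRKY48, had 139 reads in NT (Nipponbare), 1 in RCc3::OsNAC6, 15 in GOS2::OsNAC6, 10 in NT (Hwayoung) and 8 in nac6. The ratio of NT (Nipponbare) to RCc3::OsNAC6 was 137, with an exact 95% interval from 24.2 to 5459 that covers counting error only, and the log2 ratio for GOS2::OsNAC6 was -2.80 ± 0.47. A neighbouring locus with the same function text, Os05t0478400-00, had 65, 23 and 19 reads in the Nipponbare libraries in that order and log2 ratios of -1.41 ± 0.44 and -1.42 ± 0.46. Os06t0158100-00, similar to WRKY63, had 91, 31 and 22 reads and log2 ratios of -1.48 ± 0.38 and -1.70 ± 0.42. These 3 stood at 4 to 66 reads in the Hwayoung libraries, where the first 2 were too low to test.

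The other 4 of the 10 were also at least 2-fold higher in nac6 than in NT (Hwayoung), which is 5.19% of the 77 members tested in all 3 comparisons, against 0.186% of all transcripts. Os01t0821600-01, a WRKY48-like protein also called WRKY21, had 312 reads in NT (Nipponbare), 51 in RCc3::OsNAC6, 97 in GOS2::OsNAC6, 156 in NT (Hwayoung) and 699 in nac6. Its log2 ratios were -2.55 ± 0.28, -1.41 ± 0.22 and 2.35 ± 0.17. Os05t0571200-01, similar to WRKY19, had 210, 30, 44, 78 and 189 reads in the same order and log2 ratios of -2.71 ± 0.35, -1.94 ± 0.31 and 1.45 ± 0.25. In both, the overexpressor libraries lay below the controls of either cultivar. Os12t0116700-01, similar to WRKY64, had 163, 41, 56, 97 and 257 reads and log2 ratios of -1.92 ± 0.32, -1.25 ± 0.29 and 1.57 ± 0.22. Os03t0335200-01, similar to WRKY1, had 214, 35, 79, 76 and 138 reads and log2 ratios of -2.54 ± 0.33, -1.16 ± 0.25 and 1.04 ± 0.27. For the last, GOS2::OsNAC6 and NT (Hwayoung) held 3.30 and 3.22 RPM and could not be told apart within counting error. Os12t0116700-01 for GOS2::OsNAC6, and Os03t0335200-01 for GOS2::OsNAC6 and for nac6, lay within their SE of the 2-fold line. All 4 had a mean of at most 11.0 RPM over the 5 libraries.

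Members lower for RCc3::OsNAC6 and within 2-fold for GOS2::OsNAC6 numbered 15 of the 83 transcripts tested in both, the 3 of WRKY45 among them. The share of all transcripts with this pattern was not counted. Over all transcripts tested, 6.03% were lower for RCc3::OsNAC6, a share that includes those also lower for GOS2::OsNAC6. For GOS2::OsNAC6, 2.0% were lower. Os07t0680400-01, a WRKY domain protein with no number, had 2229 reads in NT (Nipponbare), 662 in RCc3::OsNAC6, 1728 in GOS2::OsNAC6, 614 in NT (Hwayoung) and 671 in nac6. Its log2 ratios were -1.73 ± 0.08, -0.10 ± 0.06 and 0.32 ± 0.11. Os04t0287400-01, similar to WRKY51, a factor that represses gibberellin responses in the aleurone, had 2445, 1001, 1966, 1223 and 2109 reads in that order of libraries. Its log2 ratios were -1.27 ± 0.07, -0.05 ± 0.06 and 0.98 ± 0.07, the last just short of 2-fold. Os01t0289600-00, similar to WRKY28, had 938, 334, 869, 2080 and 2229 reads and log2 ratios of -1.46 ± 0.12, 0.16 ± 0.09 and 0.30 ± 0.06. In these 3 the library labelled RCc3::OsNAC6 stood apart from both other Nipponbare libraries.

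Of these 15 transcripts, 3 were also at least 2-fold higher in nac6, and 1 was not tested there. Among all transcripts lower for RCc3::OsNAC6 and tested for nac6, 18.6% were higher in nac6, which is close to 3 of 15. That share includes transcripts also lower for GOS2::OsNAC6. The share of all transcripts with the whole pattern was not counted. Os11t0117500-01, a WRKY domain protein, had 48 reads in NT (Nipponbare), 5 in RCc3::OsNAC6, 33 in GOS2::OsNAC6, 34 in NT (Hwayoung) and 136 in nac6, and log2 ratios of -2.82 ± 0.67, -0.26 ± 0.41 and 2.13 ± 0.35. Os01t0584900-01, WRKY77 and WRKY28-like by its text, had 141, 46, 118, 607 and 1070 reads and log2 ratios of -1.55 ± 0.31, 0.01 ± 0.24 and 1.01 ± 0.10. Os05t0565900-00, a WRKY domain protein, had 201, 96, 137, 278 and 504 reads and log2 ratios of -1.04 ± 0.23, -0.30 ± 0.21 and 1.04 ± 0.14. The last 2 lay within counting error of the 2-fold line in the nac6 comparison.

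Of the members that were higher in GOS2::OsNAC6, the read test passed for 8, and 1 reached 2-fold. Os01t0186000-01, similar to WRKY10, had 160 reads in NT (Nipponbare), 160 in RCc3::OsNAC6, 307 in GOS2::OsNAC6, 1764 in NT (Hwayoung) and 1367 in nac6, with a log2 ratio of 1.19 ± 0.18 for GOS2::OsNAC6. Next to it on chromosome 1, Os01t0185900-01, similar to WRKY1, had 1896, 1912, 1485, 1442 and 2891 reads and log2 ratios of 0.03 ± 0.06, -0.09 ± 0.07 and 1.20 ± 0.06. The pair thus differed in both the GOS2::OsNAC6 and the nac6 comparison. Both transcripts of Os06g0649000, similar to WRKY28, were lower for GOS2::OsNAC6 and not for RCc3::OsNAC6. The first had 56 reads in NT (Nipponbare), 92 in RCc3::OsNAC6 and 20 in GOS2::OsNAC6, with log2 ratios of 0.72 ± 0.32 and -1.14 ± 0.46, and did not pass the read test in either comparison. Set directly against each other in RPM, 20 of 84 members were at least 2-fold lower in RCc3::OsNAC6 than in GOS2::OsNAC6 and 4 were at least 2-fold higher, against 4.73% and 6.97% of all transcripts at that level, and their median log2 ratio was -0.58.

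Of the 20 members higher in nac6, 11 were within 2-fold of their control in both overexpressor libraries, and 2 were too low to test there. The matching share of all transcripts higher in nac6 was not counted, so 11 of 20 cannot be called many or few. Over all transcripts tested, 6.03% were lower and 4.47% higher for RCc3::OsNAC6, and 2.0% and 1.83% for GOS2::OsNAC6. Os08t0235800-00, similar to WRKY25, had 666 reads in NT (Nipponbare), 567 in RCc3::OsNAC6, 732 in GOS2::OsNAC6, 321 in NT (Hwayoung) and 1682 in nac6. Its log2 ratios were -0.21 ± 0.11, 0.40 ± 0.10 and 2.58 ± 0.12, the last a 5.98-fold difference. WRKY70 (Os05t0474800-01), known for setting the balance between growth and defence against herbivores, had 441, 429, 309, 503 and 1830 reads and a log2 ratio of 2.05 ± 0.10 for nac6. The library labelled nac6, at 73.4 and 79.9 RPM, stood above the other 4, which held 13.6 to 30.6 RPM for the first and 12.9 to 21.3 RPM for the second. WRKY24 (Os01t0826400-01), a repressor of gibberellin and abscisic acid signalling in the aleurone, had 522, 404, 391, 1090 and 2670 reads and a log2 ratio of 1.49 ± 0.07. WRKY74 (Os09t0334500-01), which acts in the response to low phosphate, had 1900, 1125, 1432, 1654 and 3498 reads and a log2 ratio of 1.27 ± 0.06. WRKY69 (Os08t0386200-01) had 836, 498, 555, 842 and 1774 reads and a log2 ratio of 1.27 ± 0.08. For WRKY74, and for WRKY69, RCc3::OsNAC6 was also lower than NT (Nipponbare), by -0.74 ± 0.07 and -0.73 ± 0.11 on the log2 scale, short of 2-fold.

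WRKY42 (Os02t0462800-01), a promoter of leaf senescence, had the largest ratio of the nac6 comparison among members. It had 9 reads in NT (Nipponbare), 6 in RCc3::OsNAC6, 5 in GOS2::OsNAC6, 19 in NT (Hwayoung) and 180 in nac6, and its log2 ratio for nac6 was 3.29 ± 0.42. It was near the detection limit of the Nipponbare libraries and was tested in the nac6 comparison only. The single member at least 2-fold lower in nac6 was Os11t0686250-00, a WRKY domain protein on chromosome 11, with 117, 115, 68, 107 and 6 reads and a log2 ratio of -3.60 ± 0.62. WRKY30 (Os08t0499300-01), a factor of defence and drought responses, had 36 reads in NT (Hwayoung) and 6 in nac6, too few to be tested there, and 37, 62 and 40 in the Nipponbare libraries.

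The comparisons of RCc3::OsNAC6 and of nac6 share no library. Among 77 members tested in both, 84.4% lay below 0 in the first and 77.9% above 0 in the second, and 53 (68.8%) did both. For all 29908 transcripts tested in both, these shares were 50.3%, 48.7% and 27.4%. Shares as high as those of the members in each comparison already place most of them on both sides, whether or not single members go together. Of these members, 22 were at least 2-fold lower for RCc3::OsNAC6 (28.6%) and 18 were at least 2-fold higher for nac6 (23.4%), and 7 were both, which is 31.8% of the first and 38.9% of the second. Among 29908 transcripts tested in both, 5.53% were lower for RCc3::OsNAC6 and 5.42% higher for nac6, and the overlap was 18.6% of those lower and 19.0% of those higher. From member to member the sizes went together only weakly, with r = -0.20 (Pearson) and rho = -0.21 (Spearman) across the 77 transcripts, which share libraries and are not independent. Across all 29908 transcripts tested in both, r was -0.09 and rho -0.16, so a weak inverse relation was not particular to the family.

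**Figure D3:**
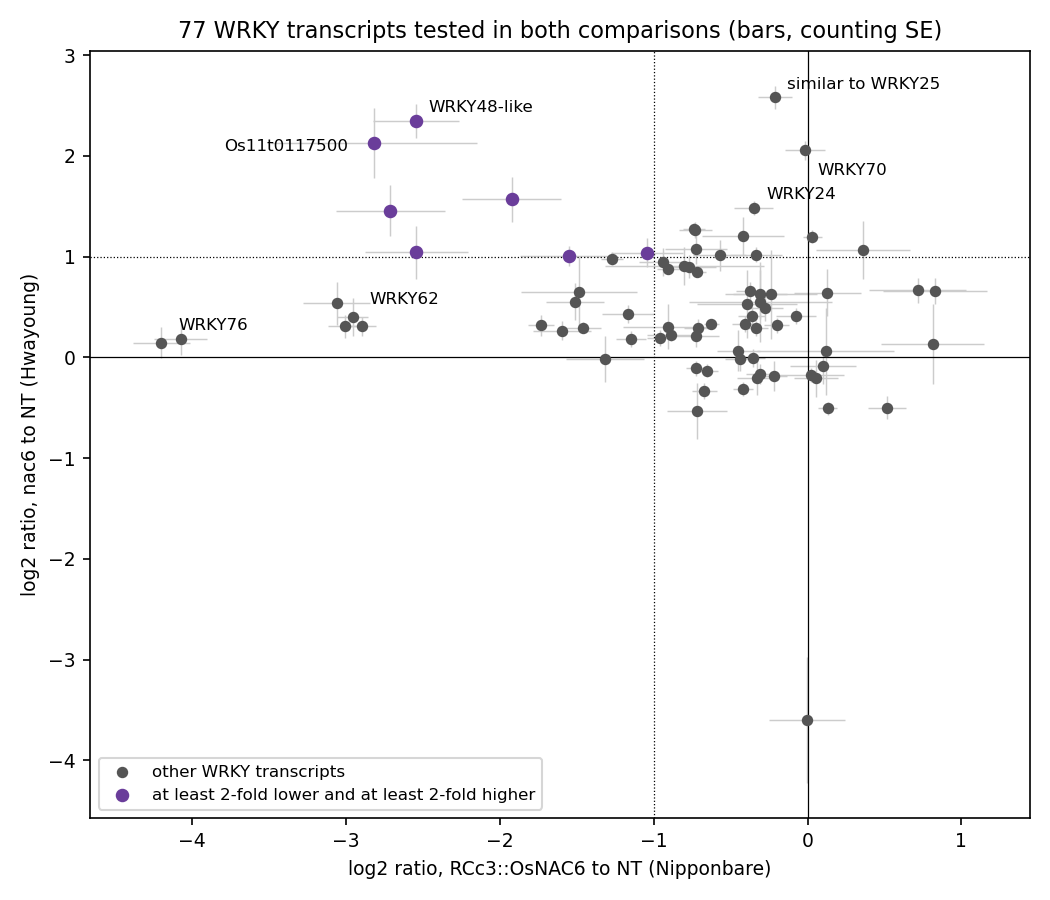
Log2 ratio of RCc3::OsNAC6 to NT (Nipponbare) (x axis) and of nac6 to NT (Hwayoung) (y axis) for the 77 WRKY transcripts tested in both, with counting SE. Dotted lines mark 2-fold, and the 7 purple points are at least 2-fold lower on the x axis and at least 2-fold higher on the y axis. Most points lie to the upper left of the origin, with WRKY76 at the left edge and near 0 on the y axis.

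Of the 10 most abundant members, 7 were within 2-fold in every comparison, a share not counted over all transcripts. WRKY53 (Os05t0343400-01), an elicitor-induced activator of defence, had the highest mean of the family at 157 RPM. It had 2871 reads in NT (Nipponbare), 1720 in RCc3::OsNAC6, 2715 in GOS2::OsNAC6, 4492 in NT (Hwayoung) and 7042 in nac6, and log2 ratios of -0.72 ± 0.06, 0.19 ± 0.05 and 0.84 ± 0.04. WRKY68 (Os04t0605100-01), at a mean of 146 RPM, had 4390, 2812, 4064, 3199 and 3508 reads and log2 ratios of -0.62 ± 0.05, 0.16 ± 0.04 and 0.33 ± 0.05. Both lay on the lower side for RCc3::OsNAC6 and on the higher side for nac6, short of 2-fold. Os01t0246700-01, similar to WRKY1, did likewise at -0.90 ± 0.07, -0.16 ± 0.07 and 0.88 ± 0.05. WRKY78 (Os07t0583700-01), which acts in stem elongation and seed size, did not, with 1844, 1997, 1512, 2303 and 1418 reads and log2 ratios of 0.13 ± 0.06, -0.02 ± 0.07 and -0.51 ± 0.06. Other abundant members on the lower side for nac6 were Os12t0507300-00 at -0.32 ± 0.07, Os12t0597700-01, similar to WRKY2, at -0.13 ± 0.07, and Os03t0321700-01, similar to WRKY55, at -0.11 ± 0.07. With the 96 members ranked by mean RPM and cut into groups of 32, the median log2 ratio for RCc3::OsNAC6 was -0.39, -0.57 and -0.66 from the least to the most abundant group. For GOS2::OsNAC6 it ran the other way, at -0.42, -0.12 and 0.08, over 20, 31 and 32 tested members. For nac6 it was 0.63, 0.54 and 0.31, over 17, 32 and 32 tested members. Medians by level were not computed for all transcripts.

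Several well studied factors were within 2-fold in the comparisons where they were tested. The 3 transcripts similar to WRKY13 (Os01g0750100), which promotes salicylic acid and curbs jasmonic acid signalling, had 904 to 1401 reads in each library and log2 ratios between -0.41 and 0.33. Os11t0490900-01, similar to WRKY72, had 460, 431, 415, 1099 and 1275 reads and log2 ratios of -0.07 ± 0.13, 0.12 ± 0.13 and 0.41 ± 0.08. Os03t0444900-00, similar to WRKY30, had 149, 158, 142, 255 and 211 reads. A second locus similar to WRKY53 (Os07t0416100-01) had 4 to 7 reads in a library and was not tested. SUSIBA2-like WRKY80, whose barley namesake regulates starch synthesis through sugar signalling, had 1275, 983, 1117, 1048 and 908 reads for Os09t0481700-01 and log2 ratios of -0.36 ± 0.08, 0.08 ± 0.08 and -0.01 ± 0.09.

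Many WRKY loci lie near each other, with 21 pairs whose locus numbers are at most 1000 apart, made of 30 loci. Neighbours had like ratios in some pairs and differed in others. Os01t0289600-00 and Os01t0289732-01 had log2 ratios of -1.46 ± 0.12 and -1.59 ± 0.19 for RCc3::OsNAC6 and of 0.30 ± 0.06 and 0.26 ± 0.09 for nac6. Os03t0321700-01 and Os03t0321800-01, both similar to WRKY55, had -0.72 ± 0.07 and -0.71 ± 0.09 for the former and -0.11 ± 0.07 and 0.29 ± 0.08 for the latter. On chromosome 11, Os11t0116900-01 and Os11t0117500-01 were lower for RCc3::OsNAC6, at -1.15 ± 0.10 and -2.82 ± 0.67, and Os11t0117400-00 between them had 0.12 ± 0.45 on 31 and 34 reads. On chromosome 12, Os12t0116400-00 had -0.96 ± 0.09 beside -1.92 ± 0.32 for Os12t0116700-01. Reads from near-identical copies may have been split or shared by the counting, so single values of such neighbours are uncertain. Within the 9 loci that had more than 1 transcript, log2 ratios of the tested transcripts differed by at most 0.37 for RCc3::OsNAC6 and 0.26 for GOS2::OsNAC6. For nac6 the widest range was 0.78, between both transcripts of Os03g0321800.

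Gene groups that work with WRKY factors were counted by words in their function text. Among all transcripts tested, 6.03% were lower and 4.47% higher for RCc3::OsNAC6. The shares lower and higher were 2.0% and 1.83% for GOS2::OsNAC6, and 3.65% and 6.3% for nac6. Of the VQ motif proteins, which bind WRKY factors, 6 of 22 tested were lower and 0 higher for RCc3::OsNAC6, 0 of 22 were past 2-fold for GOS2::OsNAC6, and 8 of 24 were higher and 0 lower for nac6. Their medians were -0.61, 0.12 and 0.69. Among them, Os12t0635400-01 had 133 and 63 reads in NT (Nipponbare) and RCc3::OsNAC6 and log2 ratios of -1.03 ± 0.28 there and 1.16 ± 0.11 for nac6, and Os03t0387300-01 had -1.20 ± 0.54 and 1.47 ± 0.31. Of the tify proteins, which hold the JAZ repressors of jasmonic acid signalling and respond to wounding, 5 of 12 were lower for RCc3::OsNAC6, 0 of 12 past 2-fold for GOS2::OsNAC6 and 4 of 13 higher for nac6, with medians of -0.93, 0.14 and 0.38. The tify transcripts Os10t0392400-01, Os04t0395800-01 and Os03t0181100-01 were lower for RCc3::OsNAC6, at -1.02 ± 0.12, -1.40 ± 0.32 and -1.18 ± 0.15, and higher for nac6, at 1.28 ± 0.06, 1.22 ± 0.16 and 1.01 ± 0.11. For RCc3::OsNAC6 and for nac6, these groups thus lay on the same sides as the WRKY members, and the part of wounding or handling in the WRKY values was not tested.

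MAP kinases had 3 of 52 lower for RCc3::OsNAC6, 0 of 52 past 2-fold for GOS2::OsNAC6 and 2 of 53 higher for nac6, with medians of -0.22, -0.20 and -0.13, so their shares did not exceed the 6.03% and 6.3% of all transcripts. Among them, Os07t0584100-01 was at -1.28 ± 0.12 for RCc3::OsNAC6 and at 1.09 ± 0.07 for nac6. Both NPR1 transcripts, for the co-activator of salicylic acid responses, were lower for RCc3::OsNAC6, with 2558 and 1172 reads in NT (Nipponbare) and RCc3::OsNAC6 for Os01t0194300-01. Their median ratio was -1.38 there, -0.42 for GOS2::OsNAC6 and -0.22 for nac6. Of phenylalanine ammonia-lyase, the entry enzyme of phenylpropanoid synthesis, 1 of 11 was lower for RCc3::OsNAC6 and 0 of 11 were past 2-fold in the other comparisons. Of the 53 transcripts with pathogenesis-related in their text, 26 were transcription factors (ERF domain factors and PTI6), and the list had 5 of 38 lower and 1 higher for RCc3::OsNAC6, 2 of 35 lower and 2 higher for GOS2::OsNAC6, and 11 of 39 higher and 0 lower for nac6, where the transcription factors made up 5 of the 11. The thaumatin-like Os12t0628600-01 was lower in both overexpressor libraries, at -1.58 ± 0.10 and -1.45 ± 0.10, and Os04t0398000-02 was lower for GOS2::OsNAC6 at -1.11 ± 0.23 and higher for nac6 at 1.06 ± 0.10.

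Photosystem and chlorophyll a/b transcripts, the markers of shoot tissue, also moved with the comparison. Of 22 tested, 8 were lower for RCc3::OsNAC6 with a median of -0.76, 1 of 22 was lower for GOS2::OsNAC6 with a median of -0.06, and for nac6 3 of 24 were higher and 2 lower with a median of 0.25. The 8 of 22 lower for RCc3::OsNAC6 were a larger share than the 6.03% of all transcripts and the 29.8% of the WRKY members. Summed, the 64 transcripts had 75.0 RPM in NT (Nipponbare), 50.6 in RCc3::OsNAC6, 75.2 in GOS2::OsNAC6, 80.0 in NT (Hwayoung) and 73.4 in nac6. Their part in the WRKY values was not tested. In bulk roots, fewer cells of a type and less RNA per cell cannot be told apart.

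**Figure D4:**
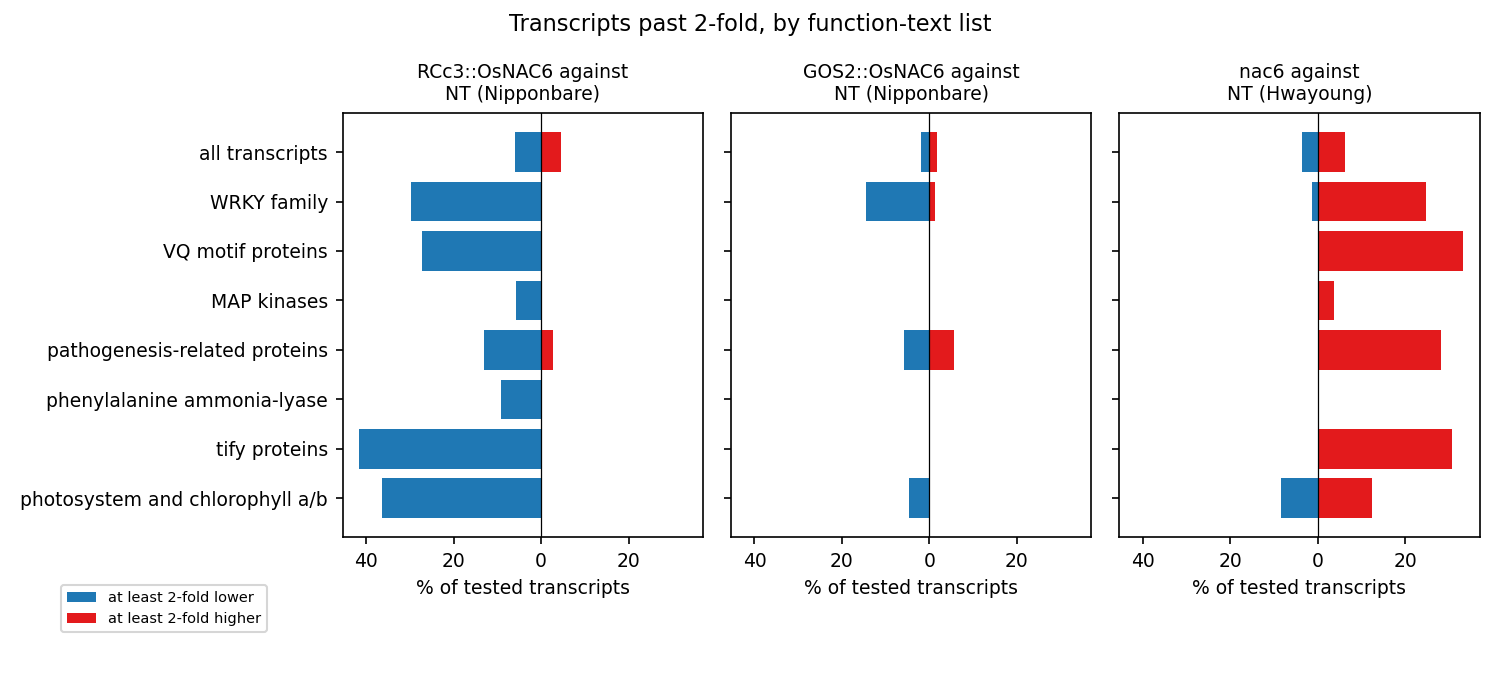
Share of tested transcripts (x axis, percent) at least 2-fold lower (blue, to the left) and at least 2-fold higher (red, to the right) for all transcripts, the WRKY family and 6 lists by function text (y axis) in the 3 comparisons. NPR1, with 2 transcripts, is left out. The WRKY family has 29.8% lower for RCc3::OsNAC6 and 24.7% higher for nac6, against 6.03% and 6.3% of all transcripts.

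The control libraries of the cultivars differed widely in single WRKY members. Of the 84 members with a mean of at least 1 RPM, 7 were at least 4-fold higher in NT (Hwayoung) than in NT (Nipponbare) and 8 were at least 4-fold lower, where 3.59% and 4.56% of all transcripts were. The tables were normalized separately, so the levels are set side by side. WRKY26 (Os01t0714800-01) had 4, 20 and 8 reads in the Nipponbare libraries and 433 and 809 in NT (Hwayoung) and nac6. WRKY62 stood at 120.8 RPM in NT (Nipponbare) and 8.02 RPM in NT (Hwayoung), WRKY76 (Os09t0417600-01) at 78.5 and 13.2 RPM, and the transcript Os05t0322900-01 similar to WRKY45 at 142.1 and 34.9 RPM. These 3 factors, among the lowest for RCc3::OsNAC6, were thus also far higher in NT (Nipponbare) than in NT (Hwayoung). For WRKY45 and WRKY76, the level in RCc3::OsNAC6, 19.5 and 4.28 RPM, lay below both controls. For WRKY62 it was 15.8 RPM, between them.

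At the 2-fold line for RCc3::OsNAC6, Os05t0565900-00 was the closest inside at -1.04 and Os12t0116400-00 the closest outside at -0.96. For GOS2::OsNAC6, Os06t0649000-02 was inside at -1.13 and Os11t0117400-00 outside at -0.75, and on the upper side Os01t0186000-01 was inside at 1.19 and Os01t0201250-00 outside at 0.59. For nac6 the closest were Os01t0584900-01 at 1.01 and Os04t0287400-01 at 0.98, and on the lower side Os11t0686250-00 at -3.60 and Os01t0972800-01 at -0.53. Of the 77 members tested in all 3 comparisons, 40 were within 2-fold in each. The share of all transcripts within 2-fold in each was not counted. Too low to be tested in any comparison were 8 members, among them Os11t0117600-00, similar to WRKY50, with 1 read in NT (Nipponbare) and 0 in the other libraries.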

How the data were processed

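RNA-seq of 5 root libraries was deposited as 3 tables, 1 per comparison. Per the labels the genome build was IRGSP-1.0. The aligner and counter were not given in the sources used here. The deposited signal of a library is its read count divided by size factors by the authors (DESeq column names), as a mean over 2 count columns. The authors' fold change and p columns were not used. For 100.0% of values the whole reads behind both columns could be recovered, at least 99.895% of them in 1 way. Both columns were taken as repeat counts of 1 library, since each group has 1 sample. The mean chi-square between them was 1.77, and the SE carries that factor. RPM is a transcript's recovered reads per 1000000 reads of its library, and RPM ratios carry 0.05 RPM in both terms. For the read test, reads were divided by 2, since both mates of a pair may have been counted, with an adjusted p threshold of 0.05. Where a library had 0 reads, 3 reads was the floor. The splitting and the measures were tested on simulated data.

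The members and lists were chosen with earlier results of these data known. Named members were the 8 largest differences in each direction per comparison, the 10 most abundant, those past 2-fold in 2 or 3 comparisons, those with at least 100 reads against at most 3, those closest to the 2-fold line, and those with well studied numbers in their text. Channels that matched tify or MAP kinase words by their letters, and MAP kinase phosphatases, were left out of those lists. Of the lists, transcripts past 2-fold in at least 2 comparisons were named. Other transcripts that are named were chosen after their values were seen. Chromosomes were read from locus identifiers. WRKY domain classes and W box counts were planned and not computed, since no protein or promoter sequences were at hand for these loci. Alternatives were another pseudocount, filter, fold threshold and scaling, reads summed per locus, each count column alone and all reads in the read test. Software was Python 3.11.15, numpy 2.4.6, pandas 2.3.3, scipy 1.17.1 and matplotlib 3.10.9.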

Additional observations from a re-analysis of the deposited data

How the results depend on the processing

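No paired analysis was possible because each group had 1 library, and for the same reason no replicate could be left out. Of 72 alternative values of the counts, 52 stayed within 1.5 times the reported count. For RCc3::OsNAC6 against NT (Nipponbare), the members lower were 43 at a 1.5-fold threshold (14.2% of all transcripts) and 11 at a 4-fold threshold (1.3%), and those higher were 3 without the filter, 4 at 1.5-fold and 1 in count column 1 alone. For GOS2::OsNAC6, the members lower were 7 with a filter at a mean of 50 and 3 at 4-fold, and those higher were 2 without the filter, 2 at 1.5-fold, and 0 at 4-fold and in count column 2 alone. For nac6, the members higher were 33 at 1.5-fold, 5 at 4-fold and 12 under scaling by library totals, where the 12 were among the 20 reported. Those lower were 3 without the filter, 0 with a filter at 50 or with both libraries required to reach 10, and 2 under library totals, per locus and in count column 2 alone. Of the 25 members lower for RCc3::OsNAC6, 25 remained under library totals and 19 with the filter at 50. The setting that asks both libraries for a value of 10, and the family sum without 6 transcripts, were chosen after seeing the data. The read test passed for 66, 37 and 61 members on all reads, or 78.6%, 44.6% and 75.3% of those tested, against 58.0%, 45.1% and 54.9% of all transcripts. No called log2 ratio of a named member changed sign under the alternatives. Of 650 alternative log2 ratios of named members, called or not, 614 stayed within the 95% counting interval. Depth limits the members of low level: the 4 to 7 tested members with under 50 reads in both libraries had an SE between 0.40 and 0.67 on the log2 scale.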
